A study of Rattus norvegicus with 18 samples.

Results

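The 10 genes followed here belong to 3 vascular peptide systems (apelin, adrenomedullin and endothelin), and were measured in soleus muscle of rats with and without kidney disease, with and without limb ischemia. They were Apln, Aplnr, Adm, Calcrl, Ramp1, Ramp2, Ramp3, Edn1, Ednra and Ednrb, named as a list, and each was represented by the array probe set that lists it as its single gene and has the highest mean over all arrays. In all, 8 of the 10 genes were found, on 11 of 31042 probe sets, and Ednra and Ednrb were not analysed here. The 4 groups were right soleus of 5 rats after 5/6 nephrectomy (SNX), left soleus of the same 5 rats, right soleus of 4 sham-operated rats and left soleus of the same 4 rats. All 9 rats were male. Strain and age are not given in the sources used here. In both kinds of rat the right femoral artery was tied and removed 8 weeks after the kidney operation, and both muscles were taken 24 hours later, so the left muscle is the unligated limb of an animal with limb ischemia and not of an untouched one. Part of the labels calls all sham muscles nonischemic and all SNX muscles ischemic, which conflicts with the series' design text, so muscles are named here by operation and side. Levels are log2 intensities from Affymetrix arrays, normalized by the authors, and 1 unit is a doubling. Levels of different probe sets are not on a common scale, so each gene is compared only with itself.

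Apelin, the product of Apln, is a peptide made largely by endothelial cells, and its receptor, coded by Aplnr, sits on endothelium and takes part in the growth and widening of vessels. Adrenomedullin, the product of Adm, is a vasodilator peptide whose gene is known to be induced by low oxygen. Its receptor, the protein of Calcrl, reaches the cell surface only with a partner: with RAMP2 or RAMP3 it binds adrenomedullin, and with RAMP1 it binds calcitonin gene-related peptide. Endothelin-1, coded by Edn1, is a vasoconstrictor peptide that acts through the receptors coded by Ednra and Ednrb.

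The promoters of the peptide genes are shown because Apln and Adm are the members whose levels differed most between the limbs, with Edn1 as the third ligand. They are RefSeq sequences of the rat build GRCr8, each from 250 bases before to 50 bases after the annotated gene start and read 5′ to 3′ along the gene: chrX:132091197-132091496 on the minus strand (Apln), chr1:174179950-174180249 on the plus strand (Adm) and chr17:22666638-22666937 on the minus strand (Edn1). Capitals mark every match, on either strand, to ACGTG or GCGTG (the core bound by hypoxia-inducible factor), TGANTCA (the AP-1 site) or TATAAA (the TATA box).
Apln: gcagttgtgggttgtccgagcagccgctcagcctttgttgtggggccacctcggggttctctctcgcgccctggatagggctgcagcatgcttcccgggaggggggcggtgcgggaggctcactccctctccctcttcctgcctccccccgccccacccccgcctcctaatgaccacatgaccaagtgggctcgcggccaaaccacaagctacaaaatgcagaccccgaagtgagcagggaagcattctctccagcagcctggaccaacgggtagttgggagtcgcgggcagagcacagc
Adm: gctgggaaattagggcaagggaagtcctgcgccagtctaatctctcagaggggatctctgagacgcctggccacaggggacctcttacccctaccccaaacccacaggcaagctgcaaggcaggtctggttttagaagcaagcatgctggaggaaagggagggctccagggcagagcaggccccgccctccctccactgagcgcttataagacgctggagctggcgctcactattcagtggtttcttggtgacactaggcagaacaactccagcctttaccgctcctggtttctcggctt
Edn1: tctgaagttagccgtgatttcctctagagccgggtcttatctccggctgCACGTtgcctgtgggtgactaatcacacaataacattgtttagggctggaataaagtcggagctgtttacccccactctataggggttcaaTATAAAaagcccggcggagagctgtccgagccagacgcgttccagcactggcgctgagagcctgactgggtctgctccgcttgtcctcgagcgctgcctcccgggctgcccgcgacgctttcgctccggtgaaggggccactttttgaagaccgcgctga
Neither the Apln nor the Adm window held any of these letters. The Edn1 window held 1 ACGTG on the opposite strand, printed as CACGT, and 1 TATAAA on the strand of the gene. Of 33469 rat promoter windows of the same length, 41.6% held ACGTG or GCGTG, 7.33% held TGANTCA and 14.2% held TATAAA, and these motifs do not overlap each other in the windows printed. The promoter table matched 8 of the 10 genes. Aplnr and Ramp2 had no entry. The windows are short, and a missing match says only that these letters are not in them.

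Array medians lay between 3.22 and 3.37, and 2 arrays stood apart by their mean correlation to all others, that of the right muscle of SNX rat 49 (0.980) and that of the right muscle of sham rat 17 (0.978). All 7 listed slow fibre genes, such as the slow myosin gene Myh7, lay above the array median on all 18 arrays. So did the 7 measured fast fibre genes, such as the fast myosin gene Myh4 (14.7 to 15.7), with group means of 14.75 to 14.87. Of these 7 genes the lowest level on any array was that of Myh1 (12.3), far above every array median. These levels give no share of slow and fast fibres. The name soleus is taken from the series' records, and whether each sample was soleus alone was not tested. The mean of the 7 slow fibre genes was lowest on the right limb array of SNX rat 20 (11.1) and next lowest on the left limb array of sham rat 17 (12.1). It ran from 11.1 to 14.2 in SNX right, 13.2 to 14.9 in SNX left, 13.3 to 14.7 in sham right and 12.1 to 14.7 in sham left muscles.

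Apln, the apelin gene, was higher in the right than in the left muscle of all 9 rats. In SNX rats its right level was 6.22 in rat 12, 5.09 in rat 18, 8.26 in rat 20, 7.02 in rat 37 and 8.22 in rat 49, against left levels of 4.81, 3.21, 4.97, 5.10 and 4.06 in the same order of rats. In sham rats it was 7.82 in rat 11, 7.08 in rat 13, 7.58 in rat 15 and 7.16 in rat 17 on the right, against 5.25, 5.80, 6.30 and 5.10 on the left. Right and left levels did not overlap in sham rats, and in SNX rats they overlapped by a hair, because the right level of rat 18 lay just below the left level of rat 37. Means were 6.97 ± 1.35 in the right and 4.43 ± 0.79 in the left muscle of SNX rats (SD, n = 5), and 7.41 ± 0.35 in the right and 5.61 ± 0.55 in the left muscle of sham rats (SD, n = 4). Averaged over both kinds of rat, Apln rose by 2.17 log2 units with a standard error (SE) of 0.41, or 4.49-fold (limma adjusted p = 0.0146). Of 14217 genes, 0.281% had an averaged difference at least as high.

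Within SNX rats alone the Apln difference was 2.53 ± 0.54 (log2 ± SE, 5.79-fold), which did not pass without the pairing of limbs (limma adjusted p = 0.161) and passed with the rat as a random block (SE 0.45, adjusted p = 0.03). With rats as fixed terms, the other paired form, it did not pass (adjusted p = 0.118). With the random block it passed in 1 of 9 fits that left out a rat, that without SNX rat 18 (adjusted p = 0.0315), and had adjusted p between 0.0505 and 0.217 in the other 8. Without the right muscles of SNX rat 49 and sham rat 17 it did not pass either (adjusted p = 0.0712). Within sham rats it was 1.80 ± 0.61 (3.48-fold) and passed neither without the block (adjusted p = 0.242) nor with it (adjusted p = 0.0789). For the averaged rise, leaving out each rat in turn without the block gave values between 1.96 and 2.31. The call ended without sham rat 11 (2.04, adjusted p = 0.0742) and without sham rat 17 (2.12, adjusted p = 0.062). With the block it passed in all 9 such fits.

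A second, dimmer probe set of Apln also had higher right than left levels in all 9 rats, with smaller steps. Right levels were 5.11, 5.15, 7.29, 6.36 and 7.36 in SNX rats 12, 18, 20, 37 and 49, against left levels of 5.02, 5.05, 4.94, 5.06 and 4.35. They were 5.84, 6.03, 6.64 and 6.24 in sham rats 11, 13, 15 and 17 on the right, against 5.13, 5.09, 5.07 and 4.95 on the left. In SNX rats 12 and 18 the second probe set differed between limbs by only 0.09 and the brighter one by 1.42 and 1.88, and in sham rat 11 they differed by 0.71 and 2.57. Its averaged rise was 1.25 ± 0.29 (adjusted p = 0.0369, and 0.0125 with the block). With rats entered as fixed terms the adjusted p was 0.0723. Over the 18 arrays, which share rats, the levels of the probe sets correlated at 0.87.

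**Figure D1:**
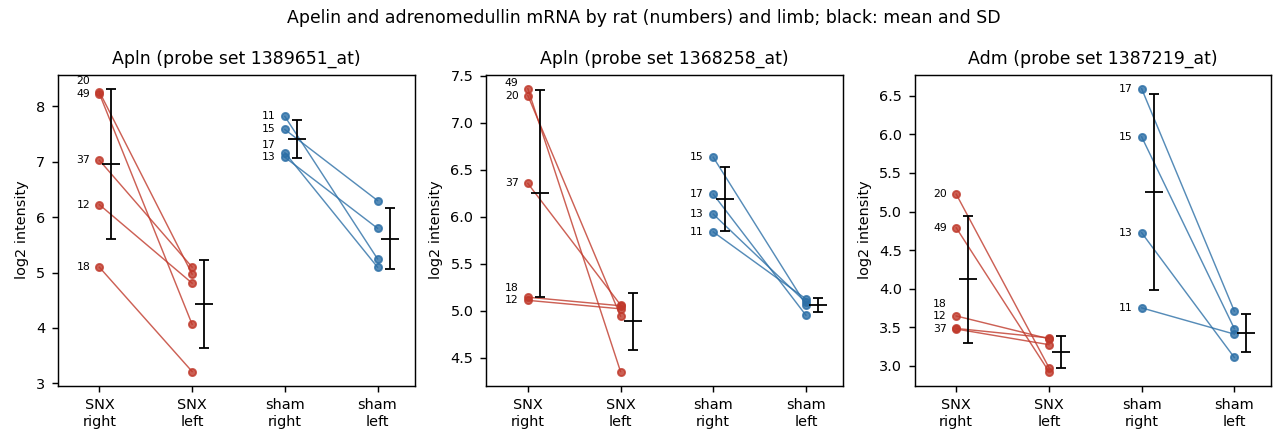
Log2 intensity of both Apln probe sets and of Adm (vertical axes) in SNX right, SNX left, sham right and sham left muscles, with a line for each rat, rat numbers beside the right limb points, and the mean with SD in black (n = 5 SNX and 4 sham rats). Each line runs down from right to left limb, by 1.28 to 4.16 units for the brighter Apln probe set and by 0.12 to 2.89 units for Adm.

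Adm, the adrenomedullin gene, was also higher on the right in all 9 rats, but by amounts that differed widely between animals. Right levels were 3.48 in SNX rat 12, 3.64 in rat 18, 5.22 in rat 20, 3.47 in rat 37 and 4.79 in rat 49, against 3.36, 3.35, 2.97, 3.27 and 2.92 on the left. In sham rats they were 3.75 in rat 11, 4.72 in rat 13, 5.97 in rat 15 and 6.59 in rat 17, against 3.41, 3.11, 3.48 and 3.71 on the left. Right and left did not overlap within either kind of rat, but they lay close. The lowest right and highest left levels were 3.47 and 3.36 in SNX rats and 3.75 and 3.71 in sham rats. The share of all probe sets without overlap between limbs was not computed, so the lack of overlap of Adm or Apln has no background to be set against. SNX rats 12, 18 and 37 and sham rat 11 differed between limbs by 0.12 to 0.34, and the other 5 rats by 1.62 to 2.89. The left levels lay close to the array medians, where the size of a log2 difference is least certain. So did the right levels of SNX rats 12, 18 and 37 and sham rat 11, so the higher right level is least certain in those rats.

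Averaged over both kinds of rat, Adm rose by 1.39 ± 0.34 (log2 ± SE, 2.62-fold, limma adjusted p = 0.0463, and 0.0139 with the block). Of all genes, 0.971% had an averaged difference at least as high. Without the block the call ended in 8 of 9 fits that left out 1 rat, with adjusted p between 0.0613 and 0.119, and held without sham rat 11. It also ended when rats entered as fixed terms (adjusted p = 0.0633) and when the right muscles of SNX rat 49 and sham rat 17 were left out (1.09, adjusted p = 0.102), while with the block and without those muscles it passed (adjusted p = 0.0437). Within sham rats alone the difference was 1.83 ± 0.51 (adjusted p = 0.161, and 0.0533 with the block). Within SNX rats it was 0.95 ± 0.46 (adjusted p = 0.648, and 0.343 with the block), and 0.62 without SNX rat 20.

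Apln and Adm were thus the 2 of 8 measured members that passed for the averaged difference between right and left, both higher, where 1.55% of all probe sets passed as higher and 2.55% in either direction. With the block 2 of 8 members passed, against 4.56% of probe sets as higher and 9.05% in either direction. At an unadjusted p under 0.05 these were again 2 of 8 members, against 18.9% of probe sets. In SNX rats 0 of 8 members passed without the block, and 0.0451% of probe sets passed, and an unadjusted p under 0.05 was reached by 1 member and 7.92% of probe sets. Once limbs were paired by the random block, Apln alone passed, against 0.232% of probe sets as higher and 0.319% in either direction, and with fixed rat terms 0 of 8 members passed (1 at an unadjusted p under 0.05). In sham rats 0 of 8 passed without the block, where 0.148% of probe sets passed and an unadjusted p under 0.05 was reached by 2 members and 12.3% of probe sets. With limbs paired, 0 of 8 passed, where 1.8% of probe sets passed and an unadjusted p under 0.05 was reached by 3 members and 19.5% of probe sets. The median averaged difference was -0.02 over the 8 members and -0.01 over all genes.

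For the brighter Apln probe set, the size of the step was not matched by that of Adm rat by rat. SNX rat 49 had the largest Apln step (4.16), and sham rat 17 had the largest Adm step (2.89). Sham rat 11 combined an Apln step of 2.57 with an Adm step of 0.34. Over the 9 rats the steps of the brighter Apln probe set and of Adm correlated at 0.20 (Pearson) and 0.22 (Spearman), given as a description. The dimmer Apln probe set gave another picture in some rats. Its step was 0.71 in sham rat 11, and 0.09 in SNX rats 12 and 18, whose Adm steps were 0.12 and 0.30. Its correlation with the Adm steps was not computed, so the lack of a match holds for the brighter probe set only.

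Some markers of other cells also differed between the limbs. In whole muscle, fewer cells of a type and less RNA per cell cannot be told apart. The mean of 14 macrophage genes ran from 5.36 to 8.49 in SNX right against 5.03 to 5.59 in SNX left muscles, and from 6.36 to 9.12 in sham right against 5.64 to 6.39 in sham left muscles. Its highest values were those of sham rat 17 and SNX rat 49 on the right. Of the 14 genes 1 passed as higher for the averaged difference (Cd14, 2.36 ± 0.51), and 10 with the block, where 1.55% and 4.56% of all probe sets passed as higher. The mean of 8 fibroblast genes was 10.87 ± 0.24 in SNX right and 10.26 ± 0.36 in SNX left muscles, and 11.28 ± 0.50 in sham right and 11.08 ± 0.35 in sham left muscles. Its 8 genes all had averaged differences above 0 (median 0.49), where 40.2% of all genes lay above 0. Of these 8 genes 0 passed, and 2 reached an unadjusted p under 0.05, against 18.9% of all probe sets. Over the 18 arrays, which share rats and groups, Apln correlated with the fibroblast mean at 0.57 and with the macrophage mean at 0.58. Its correlation with the mean of the endothelial genes was lower, at 0.42 over all arrays, 0.08 within right and 0.42 within left muscles. The fibroblast value was not computed within limbs. Within the 9 right muscles the Apln and macrophage value was 0.08 (-0.42 without the 2 farthest from the median). Within the 9 left muscles it was 0.57 (0.62 without the 2 farthest). Adm correlated with the macrophage mean at 0.68 over the 18 arrays. Within right muscles that value was 0.49 (-0.12 without the 2 farthest), and within left muscles 0.31 (0.23). The right muscle of SNX rat 20 had the highest Apln level of all arrays and the highest Adm level of SNX rats beside the lowest macrophage mean of all right muscles (5.36). Without that 1 array the correlation with the macrophage mean was 0.72 for Apln and 0.79 for Adm.

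The mean of 9 endothelial genes lay at 7.47 to 7.71 in SNX right against 7.18 to 7.68 in SNX left muscles, and at 7.67 to 8.34 in sham right against 7.42 to 7.94 in sham left muscles. Of these 9, Kdr, the main receptor of VEGF (0.85 ± 0.15), and the junction gene Pecam1 (0.34 ± 0.08) rose in the averaged comparison. Tek, which codes for the Tie2 receptor, fell with the block only (-0.58 ± 0.12, adjusted p = 0.0108), and Cldn5, a tight junction gene, rose with the block only (0.65 ± 0.17, adjusted p = 0.0269). Of 10 pericyte and smooth muscle genes 3 rose and 1, Rgs5, fell. For these lists too, 2.55% of all probe sets passed in either direction without the block and 9.05% with it. No gene of the slow fibre list passed. The part of any of these cell types in the Apln and Adm differences was not tested.

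Aplnr, the apelin receptor gene, showed no common direction between limbs. Its brighter probe set read 3.79, 5.50, 4.47, 4.27 and 4.10 in the right muscle of SNX rats 12, 18, 20, 37 and 49, against 2.92, 5.39, 4.53, 5.72 and 4.42 in the left. In sham rats 11, 13, 15 and 17 it read 4.13, 3.98, 3.92 and 2.89 on the right, against 4.15, 3.49, 3.66 and 3.88 on the left. The right level was higher in 2 of 5 SNX and 2 of 4 sham rats, and all groups overlapped. Means were 4.43 ± 0.65 (right) and 4.60 ± 1.09 (left) in SNX rats and 3.73 ± 0.57 (right) and 3.80 ± 0.29 (left) in sham rats. The averaged difference was -0.12, with a 95% confidence interval of -0.84 to 0.60. The brighter probe set lay above the array median on 16 of 18 arrays. The other probe set of Aplnr stayed between 2.01 and 2.17 on all arrays, below every array median.

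Of the receptor partners, Ramp1 and Ramp2 lay above the array median on all 18 arrays. Ramp1 was lower on the right in 5 of 5 SNX rats and in 3 of 4 sham rats. Right levels were 9.74, 10.02, 7.72, 9.86 and 9.74 in SNX rats 12, 18, 20, 37 and 49, against 10.47, 10.13, 10.08, 9.93 and 10.08 on the left. In sham rats 11, 13, 15 and 17 they were 10.15, 10.36, 10.15 and 9.05 on the right, against 9.45, 10.63, 10.41 and 9.30 on the left. Groups overlapped in both kinds of rat, and 1 muscle, the right one of SNX rat 20, lay far below the others. The right minus left difference was -0.72 ± 0.41 in SNX rats (adjusted p = 0.728) and -0.02 ± 0.46 in sham rats (adjusted p = 0.98), and neither passed.

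Ramp1 varied with the slow fibre genes. The right muscle of SNX rat 20 had both the lowest Ramp1 level and the lowest slow fibre mean, and each muscle of sham rat 17 was the lowest of its group in both. Over the 18 arrays, which share rats, Ramp1 correlated with the slow fibre mean at 0.86 (Pearson) and 0.73 (Spearman). Without the right muscle of SNX rat 20 the Pearson correlation was 0.70. Within the 9 left muscles, 1 from each rat, it was 0.855, and 0.71 without the 2 muscles farthest from the median slow fibre mean. Within the 9 right muscles it was 0.95, and 0.45 without the 2 farthest, so the right limb value rests largely on those muscles. The genes most like Ramp1 over the arrays were Myoz2, a sarcomere gene of slow muscle (r = 0.88), Myl2, a slow myosin light chain gene (0.87), and Tnni1, the slow troponin I gene (0.86). These values are descriptions of few muscles and carry no test. The fast fibre genes were high on all 18 arrays. Whether the slow fibre mean and Ramp1 varied with the muscle tissue sampled was not tested.

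Ramp2 stayed within 1.01 log2 units over all arrays. Right levels were 7.57, 7.81, 7.34, 7.94 and 7.44 in SNX rats 12, 18, 20, 37 and 49, against 7.19, 7.77, 8.09, 7.97 and 7.71 on the left. In sham rats 11, 13, 15 and 17 they were 7.64, 8.03, 7.65 and 7.79 on the right, against 7.44, 8.20, 7.85 and 8.19 on the left. All groups overlapped, and the averaged difference was -0.14 ± 0.14 (adjusted p = 0.576). Ramp2 correlated with the endothelial mean at 0.86 within the 9 left muscles (0.70 without the 2 farthest from the median) and at 0.50 within the 9 right muscles (0.09 without the 2 farthest).

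**Figure D2:**
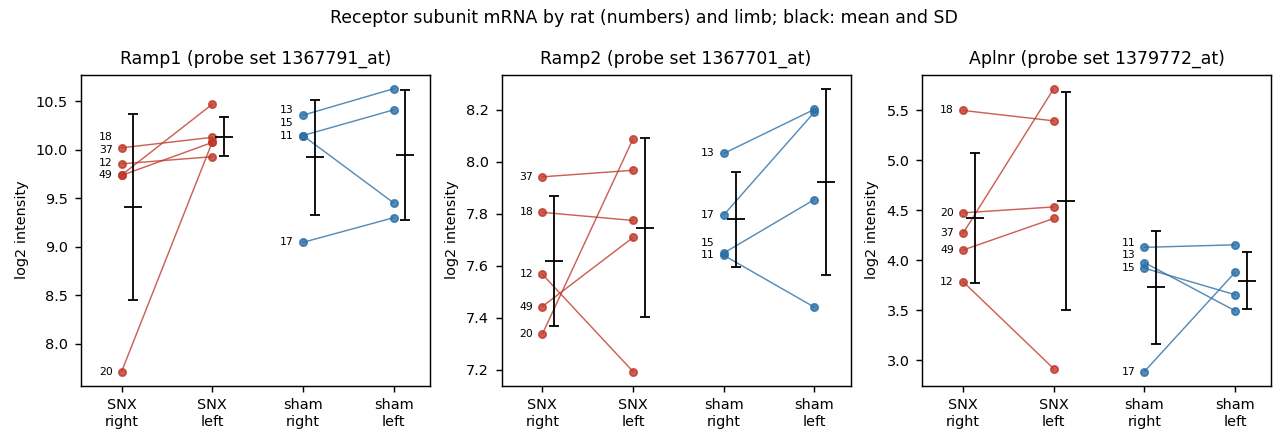
Log2 intensity of Ramp1, Ramp2 and the brighter Aplnr probe set (vertical axes) in SNX right, SNX left, sham right and sham left muscles, with a line for each rat, rat numbers beside the right limb points, and the mean with SD in black (n = 5 SNX and 4 sham rats). The lines run in both directions in each panel, and the right muscle of SNX rat 20 stands alone at a Ramp1 level of 7.72.

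**Figure D3:**
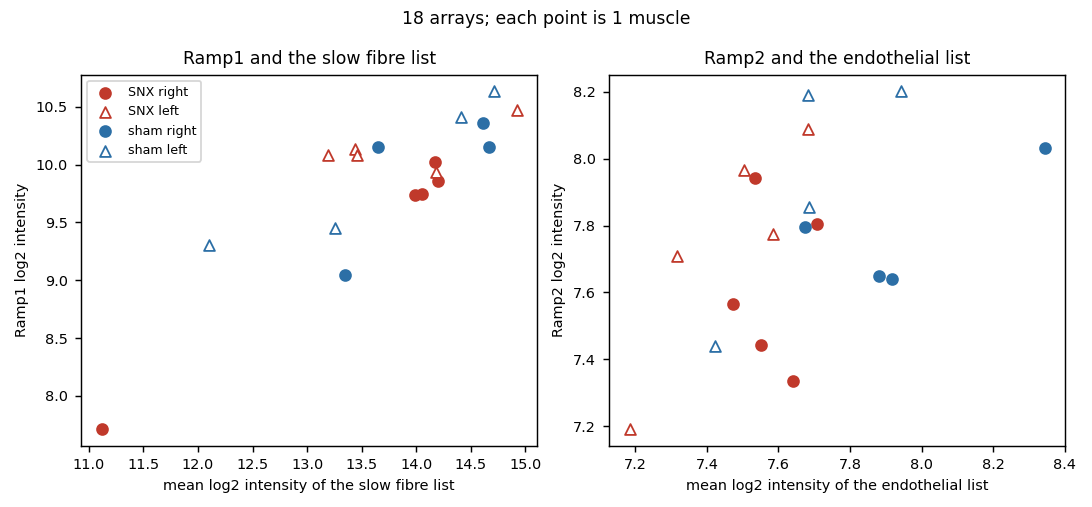
Ramp1 against the mean of 7 slow fibre genes, and Ramp2 against the mean of 9 endothelial genes, both in log2 intensity, with 1 point for each of the 18 muscles. Ramp1 and the slow fibre mean are both lowest in the right muscle of SNX rat 20 (7.72 and 11.1).

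Calcrl, Ramp3 and Edn1 lay below the array median on all 18 arrays and hardly moved. Ramp3 ranged from 2.45 to 2.56, and Calcrl from 2.64 to 2.77 on its brighter and from 2.43 to 2.60 on its dimmer probe set. Edn1 ranged from 2.39 to 2.49 on 17 arrays and reached 2.78 in the right muscle of sham rat 11, whose left muscle read 2.45. Values this low on these arrays do not show that the mRNA was absent, and they leave little room to see a difference. Calcrl was lower on the right in 4 of 4 sham rats by 0.02 to 0.08, a difference of -0.05 that did not pass (adjusted p = 0.443 without and 0.207 with the block). On its brighter probe set the sham right levels (up to 2.6928) did not overlap those of sham left (from 2.6932) or SNX right muscles (from 2.6974). On its dimmer probe set these groups overlapped.

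Set against sham rats, no member passed in SNX rats in either limb. These comparisons use the same arrays as those between limbs. In the right limb, Adm averaged 4.12 ± 0.82 in SNX and 5.26 ± 1.27 in sham rats. SNX rats 12, 18 and 37 lay below every sham rat, and SNX rats 20 and 49 lay within the sham range. The difference was -1.14 ± 0.49, with a 95% confidence interval of -2.18 to -0.10, and did not pass (limma adjusted p = 0.498). It was -0.69 without sham rat 17 and -1.64 without sham rat 11. Apln averaged 6.97 ± 1.35 in SNX right and 7.41 ± 0.35 in sham right muscles, with 3 SNX rats below and 2 above every sham rat. In the left limb, Apln averaged 4.43 ± 0.79 in SNX and 5.61 ± 0.55 in sham rats. The levels of 4 SNX rats lay below every sham level, that of rat 37 lay just above the lowest sham level (5.0969 against 5.0961), and the difference of -1.18 ± 0.58 did not pass (adjusted p = 0.817). These Apln values are those of the brighter probe set. The dimmer one differed by only -0.17 ± 0.41 in the left and 0.07 ± 0.41 in the right limb, so it did not share the lower left level.

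Of the 8 members 0 passed in the left limb (limma), where 0.00644% of probe sets passed, and an unadjusted p under 0.05 was reached by 0 members and 6.25% of probe sets. In the right limb 0 passed, where 0% of probe sets passed, and an unadjusted p under 0.05 was reached by 1 member (Adm) and 9.25% of probe sets. With the limbs of each rat averaged first, 0 passed, again with 0% of probe sets called, and an unadjusted p under 0.05 was reached by 0 members and 8.36% of probe sets. In that comparison the differences were -0.81 ± 0.47 for Apln, -0.69 ± 0.33 for Adm and 0.75 ± 0.40 for Aplnr, with adjusted p of 0.578 for each. The dimmer Apln probe set differed by -0.05 ± 0.23. The endothelial mean was 7.58 ± 0.09 in SNX against 7.95 ± 0.28 in sham rats in the right limb, and 7.45 ± 0.20 against 7.68 ± 0.21 in the left. All 9 endothelial genes had differences below 0 in each limb and with the limbs averaged. With the limbs averaged, 0 of these 9 passed, 4 reached an unadjusted p under 0.05, and 60.6% of all genes lay above 0. The macrophage mean was also lower in SNX than in sham rats, at 5.23 ± 0.22 against 6.06 ± 0.37 in the left and 6.62 ± 1.17 against 7.28 ± 1.26 in the right limb, and so was the fibroblast mean, at 10.26 ± 0.36 against 11.08 ± 0.35 in the left and 10.87 ± 0.24 against 11.28 ± 0.50 in the right limb. The part of these cell types in the differences of Apln and Adm was not tested.

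**Figure D4:**
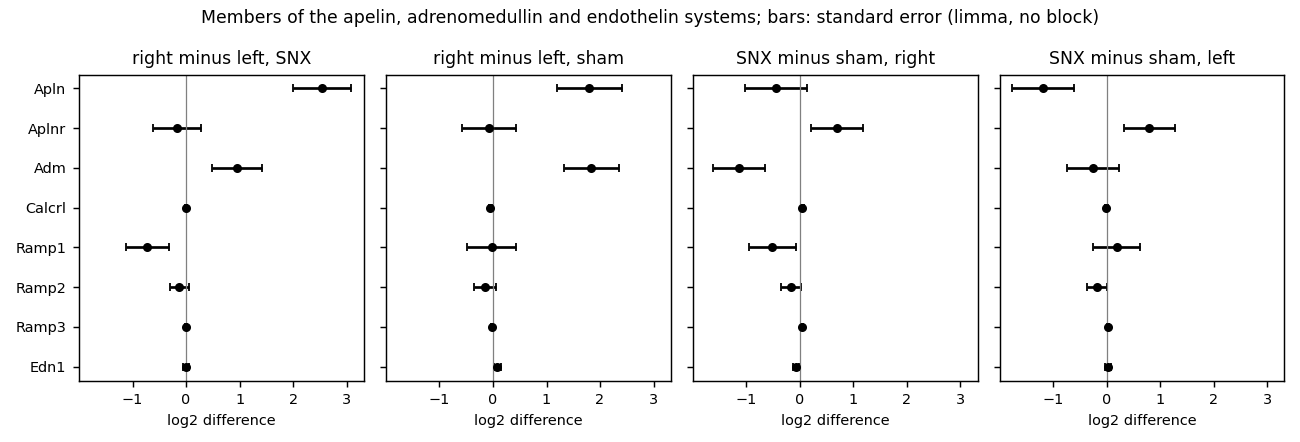
Log2 difference of each of the 8 measured members (horizontal axes, with standard errors from limma without the block) for right minus left in SNX rats, right minus left in sham rats, SNX minus sham in the right limb and SNX minus sham in the left limb. Apln lies at 2.53 and 1.80 and Adm at 0.95 and 1.83 in the right minus left panels, and Calcrl, Ramp3 and Edn1 lie near 0 in all panels.

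The question raised by the series title, whether kidney disease alters the response to ischemia, was addressed by the difference between the right minus left changes of SNX and sham rats. For Apln the change was 0.73 log2 units larger in SNX rats, with a 95% confidence interval of -1.0 to 2.47. For Adm it was 0.89 smaller (a difference of -0.89, interval -2.36 to 0.58). With each rat left out in turn these differences ran from 0.33 (without SNX rat 49) to 1.01 (without SNX rat 12) for Apln and from -1.38 (without sham rat 11) to -0.54 (without sham rat 17) for Adm. Both intervals hold 0 and also hold differences of over 2 log2 units, so neither an equal nor an unequal response was shown. The Apln values here are those of the brighter probe set. On the dimmer one the difference was 0.24, with an interval of -0.99 to 1.47. Of the 8 members 0 passed (limma), and 0% of probe sets passed. An unadjusted p under 0.05 was reached by 0 members and 1.41% of probe sets.

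Other genes of these pathways were taken from a list of 26, of which 21 were measured. The list held other peptides and receptors of the families (Edn2, Calca, Calcb, Calcr, Ackr3), processing and degrading enzymes (Furin, Pam, Cpe, Ece1, Ece2, Mme, Mmel1, Klkb1), Crcp, and G protein and arrestin genes that relay or end receptor signals (Gnas, Gnaq, Gna11, Gna12, Gnai2, Arrb1, Arrb2). In none of the 7 comparisons did a gene of the list pass in limma, with or without the block. An unadjusted p under 0.05 was reached by 3 of 21 genes for the averaged right minus left difference, against 18.9% of all probe sets, and by 3 for SNX against sham rats with the limbs averaged, against 8.36% of all probe sets. For the averaged right minus left difference, 9 of 21 lay above 0 with a median of -0.01, against 40.2% of all genes above 0. The highest was Gnai2, an inhibitory G protein subunit gene (0.40 ± 0.14, adjusted p = 0.145, and 0.0599 with the block), and the lowest was Edn2, the endothelin-2 gene (-0.20 ± 0.20). For SNX against sham rats with the limbs averaged, the lowest was Ackr3, whose product is an atypical receptor that takes up the chemokine CXCL12 and adrenomedullin. It differed by -0.76 ± 0.22 (adjusted p = 0.531), by -0.73 ± 0.24 in the right and by -0.79 ± 0.24 in the left limb. The highest was Edn2, at 0.37 ± 0.18.

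**Figure D5:**
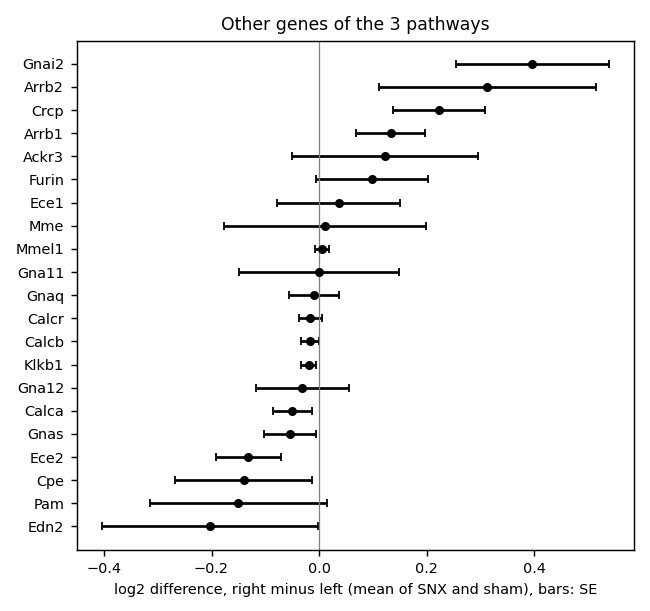
Log2 difference between right and left muscle, averaged over SNX and sham rats, for 21 other genes of the pathways, with standard errors (limma without the block). The differences run from -0.20 (Edn2) to 0.40 (Gnai2), and none passed.

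The genes whose levels over the 18 arrays were most like those of a member were found among 9080 genes with a mean above the typical array median. For Apln they were Socs6, a suppressor of cytokine signalling (r = 0.91), and the basement membrane collagen genes Col4a1 (0.89) and Col4a2 (0.89). For Adm they were Fnip2, a folliculin partner gene (0.93), Insig1, a regulator of sterol synthesis (0.89), and the kinase gene Map3k1 (0.89). After the group means were taken off, these correlations were 0.72, 0.67 and 0.62 for the genes like Apln and 0.84, 0.75 and 0.79 for those like Adm. For Ramp2 they were the spectrin gene Sptbn1 (0.79), the endothelial phosphatase gene Ptprb (0.78) and the annexin gene Anxa3 (0.78), and for Aplnr Prpmp5 (0.86), Acbd4 (0.86) and Fcgbpl1 (0.86). The genes found for Calcrl (Slc6a14, Chsy3, Rp1), Edn1 (Myct1, Fbxl12, Kazn) and Ramp3 (Clec1b, Flt4, Ropn1l) follow variation of 0.39 units or less. The arrays share rats and groups, and the best of many genes correlates highly in so few arrays, so these values are descriptions only.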

How the data were processed

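Soleus RNA of 9 rats was hybridised to 18 Affymetrix arrays, with biotin-labelled cRNA per the labels' protocols. Log2 intensities, normalized before they were deposited, were used as given. Per the submitters' processing notes the tools were RMA, GCRMA and Partek, with no version or role stated, and these treat dim probe sets differently. Arrays carry no read depth, so the number of arrays limits precision.

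Without 57 controls, 31042 probe sets were tested, of which 20826 list a single gene, 436 several and 9780 none. Names came from the platform annotation, updated by Entrez ID to RefSeq GRCr8 (20758 matched). One mean per group was fitted with limma 3.58.1 in R 4.3.3, two-sided, adjusted by Benjamini-Hochberg over all probe sets, threshold 0.05. The comparison of SNX with sham rats over both limbs used the mean of each rat's limbs. The limbs of a rat come from 1 animal, so they are paired: in 7 of 9 rats the deviations of right and left from the group means had a correlation over 0.1, and the random block used 0.297. The fit was also run on simulated normal values, with changes put only into brighter probe sets. That run is no test for dim probe sets or for groups with 1 outlying muscle. The labels give no array batch.

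The members, gene lists, named genes (all members, list genes that passed or lay at an extreme, and the 3 genes most like each member) and alternatives (blocks, rats or arrays left out, centring, quantile normalization, dim probe sets, groups fitted, spread model, choice of probe set) were chosen with earlier results of these data known. The 3 combined or single-array alternatives were added after the data were seen.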

Additional observations from a re-analysis of the deposited data

Results flagged for a closer look

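In 7 of 44 groups of 4 or 5 muscles, over the 11 probe sets of the members, 1 muscle lay far from the rest of its group by Dixon's test. For independent, normally distributed values the test flags about 1 in 20 such groups. The 44 groups share arrays, and the rate over all probe sets was not computed, so no excess among the members was shown. Ramp1 was 7.72 in the right muscle of SNX rat 20, against 9.74 to 10.02 in the other SNX right muscles, and that muscle also had the lowest slow fibre mean. Ramp1 was 9.05 in the right muscle of sham rat 17, against 10.15 to 10.36 in the other sham right muscles. Aplnr was 2.89 in the same muscle of rat 17, against 3.92 to 4.13, and lay below the array median there. The dimmer Apln probe set was 4.35 in the left muscle of SNX rat 49, against 4.94 to 5.06, in the rat whose right muscle had its highest level. Edn1 was 2.78 in the right muscle of sham rat 11, against 2.41 to 2.44, and stayed below the array median there. Calcrl was 2.75 in the right muscle of SNX rat 18, against 2.70 to 2.71, and 2.77 in the left muscle of sham rat 11, against 2.69 to 2.70, steps of under 0.1 in a probe set near the floor of the arrays. No member moved one way in all SNX rats and the other way in all sham rats.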

How the results depend on the processing

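The 8 member differences recomputed (those with an unadjusted p under 0.05 in either fit) kept their direction in every alternative run. Averaged over both kinds of rat, Apln differed by 1.71 to 2.31 log2 units over 30 alternatives and passed in 28, and Adm by 1.09 to 1.64 and passed in 20. The count of members that passed for that difference was 2, and it was 0 to 1 when 1 rat was left out without the block, 0 without sham rat 17 and 1 without any other rat. It was 1 with the rat as a fixed term (replicate block, fixed) and 1 when the right muscles of SNX rat 49 and sham rat 17 were left out. It was 2 with the rat as a random block, also with each rat left out, and under centring, quantile normalization, the dim probe set filter, both other spread models, both other choices of probe set, and without the right muscle of SNX rat 20. In SNX rats the count of 0 became 1 with the random replicate block, and 0 to 1 with that block and 1 rat left out, where only the fit without SNX rat 18 gave 1. In sham rats it was 0 to 2 with the block and 1 rat left out, with 1 without SNX rat 18 and 2 without SNX rat 49. The comparisons of SNX with sham rats and of the responses gave 0 in every alternative. A fit of only the groups compared was not run for the averaged difference, the comparison over both limbs or the difference of responses, and fixed rat terms were not run for SNX against sham rats, where rats and operations coincide. The paired fits changed no other call of the main probe sets of members, and the cause of these changes was not tested. The list of Schwann cell genes (mean 6.17 ± 0.85 in SNX right, 5.03 ± 0.22 in SNX left, 6.80 ± 0.65 in sham right and 6.52 ± 0.95 in sham left muscles) and that of fast fibre genes (14.75 to 14.87 as group means) were measured but not used further. Signal over background limits Calcrl, Ramp3, Edn1 and the dimmer Aplnr probe set. In part it also limits Adm and the brighter Aplnr probe set, which lay above the array median on 14 and 16 of 18 arrays.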
